A study of Homo sapiens with 9 samples.

Results

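SLBP, the stem-loop binding protein, was profiled by singleplex ABC in K562 cells, an established human leukaemia line, in 2 replicates, and the peaks that lay outside the histone genes are described here. In ABC, a DNA barcode on the antibody is ligated on the beads to the crosslinked RNA fragments, so that reads are assigned to an antibody. The comparison was with 10plex ABC, in which antibodies to DDX3, EIF3G, FAM120A, IGF2BP2, LIN28B, PRPF8, PUM2, RBFOX2, SF3B4 and ZC3H11A were used together on K562 lysate in 3 replicates, giving 30 libraries. No treatment distinguished the groups, SLBP was not among the 10plex antibodies, and the experiments were made apart, so that antibody, plex format and experiment cannot be told apart. The title of 10plex replicate 3 gave K562 as the cell line and its cell line field gave K563. All 14 K562 markers, among them the embryonic globins HBE1 and HBZ and the regulators GATA1 and TAL1, had a peak in each of the 3 10plex replicates.

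A locus was a run of touching peaks of either SLBP replicate on 1 strand, and it was shared where both replicates had a peak in it. Of 4025 loci, 106 lay in histone genes and 3919 outside them. Outside the histone genes 285 loci were shared, 2841 were found in replicate 1 alone and 793 in replicate 2 alone. Inside the histone genes 62 of the 106 were shared. The shared loci outside histone genes held 41.8% of the peak reads of replicate 1 and 41.8% of those of replicate 2. The peak reads summed to 50391 in replicate 1 and 11800 in replicate 2, against 10464 to 1602278 in the 10plex libraries. PUM2 (10464 to 15079) was nearest in depth to SLBP replicate 2, and ZC3H11A (41463 to 88121) and EIF3G (24604 to 37084) held the libraries nearest to replicate 1. These p-values and intervals cover the spread between these samples or counting error only, as nothing in the labels says that replicates came from separate cultures.

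Replication-dependent histone mRNAs end in a conserved stem-loop instead of a poly(A) tail. SLBP binds this stem-loop, and with the U7 snRNP it directs 3′ end cleavage, after which it stays with the mRNA for export and translation. Small structured RNAs such as RNase P and RNase MRP RNA, which cut precursors of tRNA and ribosomal RNA, the spliceosomal snRNAs, and 5S ribosomal RNA are abundant and tightly folded, and they are common in CLIP libraries of many proteins.

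The sequences below are those on which the results turn. The histone stem-loop comes from H1-2 (chr6:26055744-26055759, minus strand, GRCh38), the shared histone locus with the highest share of reads among those with an exact match to the stem-loop pattern. RMRP, RNU12 and RNU11 are shown whole, from GENCODE release 44, with the bases that lay in shared SLBP loci in capitals.
H1-2: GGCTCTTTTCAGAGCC
RMRP: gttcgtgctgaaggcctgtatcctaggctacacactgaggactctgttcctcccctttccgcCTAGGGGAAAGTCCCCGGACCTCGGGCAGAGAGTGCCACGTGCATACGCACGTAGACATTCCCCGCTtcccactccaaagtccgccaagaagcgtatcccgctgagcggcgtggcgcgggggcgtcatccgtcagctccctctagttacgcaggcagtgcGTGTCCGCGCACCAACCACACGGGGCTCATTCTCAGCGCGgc
RNU12: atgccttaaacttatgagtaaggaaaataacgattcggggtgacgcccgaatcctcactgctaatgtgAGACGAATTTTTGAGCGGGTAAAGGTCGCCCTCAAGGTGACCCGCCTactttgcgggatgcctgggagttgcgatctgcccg
RNU11: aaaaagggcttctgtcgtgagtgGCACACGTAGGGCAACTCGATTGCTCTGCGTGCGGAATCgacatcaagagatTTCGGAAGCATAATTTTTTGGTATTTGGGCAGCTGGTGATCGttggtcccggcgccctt

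Further loci are shown, none of which held the histone stem-loop with at most 1 mismatch. They share letters with another RNA, with the oligonucleotides of the assay or with each other, except EZR, which is shown for its absence from the 10plex libraries. The intron locus of RBMS1 (chr2:160396885-160396935, minus strand) has in capitals the bases that differ from RMRP. The loci of FRG1-DT (chr4:189805443-189805468, minus strand) and CACNB2 (chr10:18254801-18254825, plus strand) have in capitals a barcode of the study followed by the first 8 bases after it in the oligonucleotides. ACSL3 (chr2:222866743-222866789, plus strand), MAGEB10 (chrX:27809486-27809550, plus strand) and CHTF18 (chr16:788399-788447, plus strand) have runs of at least 8 C in capitals. GMPR (chr6:16266077-16266109, plus strand) has in capitals the bases that all of its loci held. The locus in EZR (chr6:158770376-158770404, minus strand) had no peak in the 10plex libraries.
RBMS1: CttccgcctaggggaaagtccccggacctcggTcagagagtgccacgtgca
FRG1-DT: atctcaacATCACAGATCGGAagtcg
CACNB2: aggtttATCACAGATCGGAttactg
ACSL3: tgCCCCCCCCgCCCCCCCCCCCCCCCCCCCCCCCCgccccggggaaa
MAGEB10: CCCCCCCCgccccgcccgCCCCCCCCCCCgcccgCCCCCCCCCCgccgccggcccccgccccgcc
CHTF18: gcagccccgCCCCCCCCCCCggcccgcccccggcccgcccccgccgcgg
GMPR: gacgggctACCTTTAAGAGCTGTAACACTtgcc
EZR: ctaaaacccaaaggcgtgttcagagccag

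The first question was which RNAs other than histone mRNAs gave SLBP peaks in both replicates. SnoRNAs and scaRNAs, which guide modification of ribosomal RNA and snRNA, gave the most shared loci with 100. The class of 5S and 5.8S ribosomal RNA and their copies gave 37. Exons of protein-coding genes gave 38, their introns 38, exons of lncRNAs 23 and mitochondrial transcripts 19. The snRNAs gave 7 loci, RNase P and RNase MRP RNA 6, the class of vault, Y, 7SK, 7SL and telomerase RNA 4, microRNAs 4, introns of lncRNAs or pseudogenes 7, and 2 lay in no gene on their strand. Structured small noncoding RNAs, which here means RNase P and MRP RNA, snRNAs, snoRNAs and scaRNAs, the vault to telomerase class and microRNAs, made up 121 of the 285.

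Classes differed in how often a locus found in either replicate was found in both. All 6 loci of RNase P and MRP RNA were shared, as were 50.7% of the 73 5S loci, 43.8% of the 16 snRNA loci and 41.3% of the 242 snoRNA loci. Of the 1877 loci in exons of protein-coding genes 2.02% were shared, and of the 1241 in their introns 3.06%. Most loci of a single replicate were shallow, as 2455 of the 3634 (67.6%) held 3 reads, the lowest number of any peak, whereas 55 of the 285 shared loci held 3 reads in the lower of the replicates.

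The region that the authors' annotation gave was the same in both replicates for 282 of the 285 loci. Noncoding exons held 168 loci, coding sequence 36, distal introns 23, 5′ untranslated regions 16, noncoding distal introns 10, tRNA genes 8, 3′ untranslated regions 6 and proximal introns 6. Loci of a single replicate lay mostly in coding sequence (1050 in replicate 1 and 258 in replicate 2) and in distal introns (660 and 246), against 276 and 36 in noncoding exons. The 8 tRNA loci held 260 reads in replicate 1 and 82 in replicate 2. They are counted here with the gene that spans them, such as the introns of ERCC1, FMC1 and AGBL5, because the annotation used for classes had no tRNA genes.

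Read numbers of the shared loci ran together in the replicates. Across the 285 loci, which are not independent replicates and share their libraries, Pearson's r of the log2 reads was 0.876 and Spearman's rho 0.819. The log2 ratio of the shares of replicate 1 over replicate 2 had an SD of 0.94, and 184 loci were within 2-fold. The median of this ratio was -0.42, so that the typical shared locus took a smaller share in the deeper replicate. A shared locus needed at least 3 reads in each replicate, which is a larger share of the shallower replicate 2. The choice of loci thus favours this sign. The loci with the most reads were those of MT-RNR2, the large mitochondrial ribosomal RNA, RMRP, ACSL3 and RNU12.

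**Figure D1:**
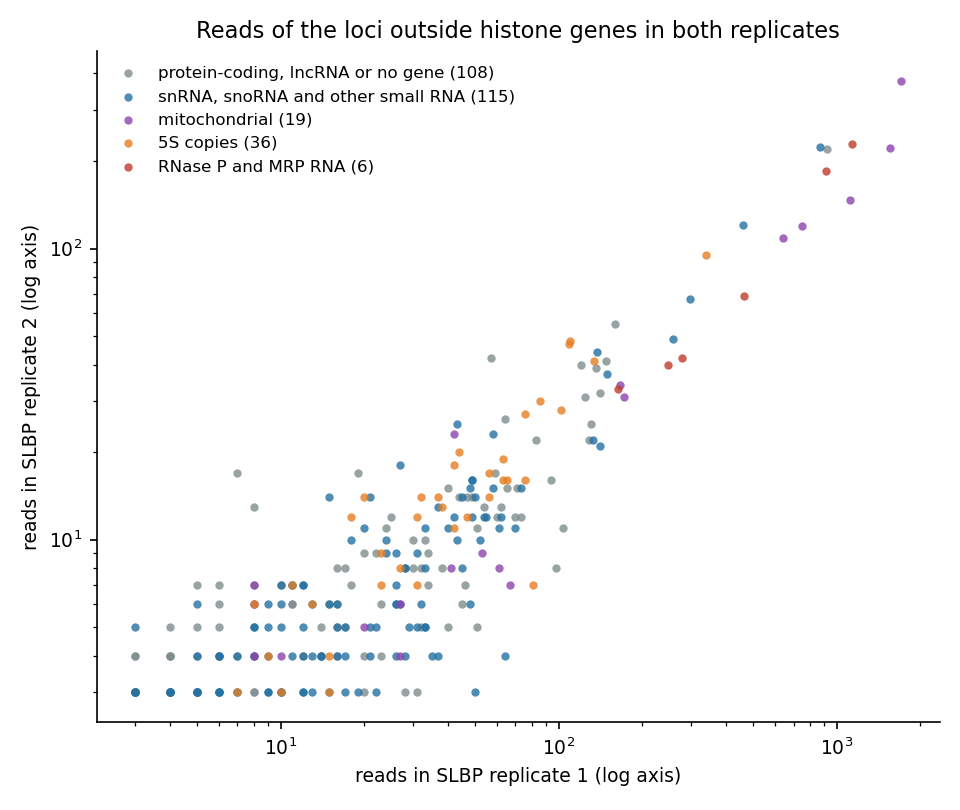
Reads in SLBP replicate 1 (horizontal, log axis) and replicate 2 (vertical, log axis) of the shared loci outside histone genes, 1 point a locus and coloured by class, with 1 locus left out. The 6 loci of RNase P and MRP RNA all lie in the upper part, at 164 to 1132 reads in replicate 1 and 33 to 229 in replicate 2.

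Shares of the reads outside histone genes set the classes beside the 10plex libraries. RNase P and MRP RNA took 9.58% of these reads in SLBP replicate 1 (exact binomial 95% interval 9.27 to 9.89) and 8.10% in replicate 2 (7.50 to 8.73). The medians over the 10 libraries of 10plex replicates 1, 2 and 3 were 1.04%, 0.654% and 0.622%, and the single libraries ran from 0.159% to 1.99%. Both SLBP values were above all 30 libraries, and the mean was 11.5-fold that of the 10plex medians. The PUM2 libraries had 1.43% to 1.99%, and the highest of the 30 was PUM2 in replicate 2.

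The class of 5S and 5.8S ribosomal RNA and their copies also lay apart. It took 6.65% (6.39 to 6.92) and 8.22% (7.61 to 8.85) of the SLBP reads outside histone genes, against medians of 0.896%, 0.338% and 0.741% and a range of 0.0837% to 2.01% over the 30 libraries. The mean was 11.3-fold higher and both replicates were again above every 10plex library, those of PUM2 included (0.332% to 1.23%).

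Other small RNA classes differed less. The snRNAs took 5.44% and 6.95% against medians of 2.96%, 2.61% and 3.39%, and 28 of the 30 libraries were below both SLBP replicates. SnoRNAs and scaRNAs took 11.8% and 10.4%, within the range of the 10plex libraries (3.08% to 33.4%), of which 18 were above both. The vault to telomerase class took 0.948% and 1.05% against medians of 0.361%, 0.388% and 0.487%, but the 3 PUM2 libraries were higher at 1.68% to 1.95%. MicroRNAs, at 0.370% and 0.530%, were within the 10plex range of 0.107% to 0.945%.

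Structured small noncoding RNAs together took 28.2% and 27.1% of the SLBP reads outside histone genes against 10plex medians of 23.3%, 17.4% and 21.8%. The difference of the means, 6.81 percentage points, had an exact two-sided permutation p of 0.2 (adjusted p = 0.231 over 15 classes), which is the smallest that 2 against 3 samples allow with this test. PUM2, near SLBP replicate 2 in depth, had 35.8% to 41.8%, so that against PUM2 alone the sign turned (-12.13 points, exact permutation p = 0.2). EIF3G, with 35.4%, 28.1% and 27.1%, and ZC3H11A, with 24.9%, 19.0% and 30.8% in 10plex replicates 1, 2 and 3, lay around the SLBP values. Of the 30 libraries, 21 were below both SLBP replicates and 7 above both.

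Mitochondrial transcripts took 24.3% and 15.0% against medians of 11.2%, 7.14% and 7.55%, and PUM2 had 19.4% to 26.7%. Introns of protein-coding genes took 14.5% and 21.5% against medians of 4.79%, 4.63% and 4.93%, with 25 of the 30 libraries below both. Exons of protein-coding genes took 16.8% and 19.5% against medians of 40.0%, 53.3% and 53.5%, and 29 of the 30 libraries were above both. Each of these differences also had an exact permutation p of 0.2, the smallest the design allows. For scale, histone genes took 30.7% and 34.4% of all SLBP peak reads and 0.105% to 1.09% of those of the 10plex libraries.

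**Figure D2:**
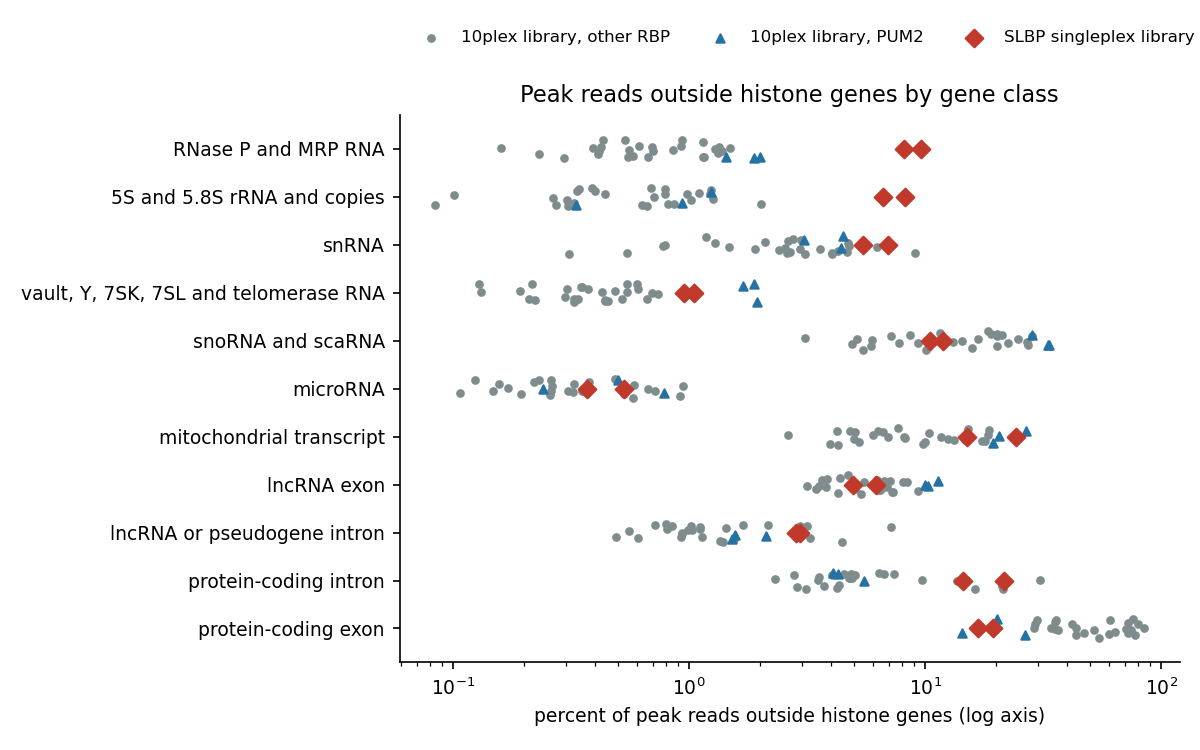
Percent of the peak reads outside histone genes (log axis) on each gene class, 1 point a library: diamonds are the 2 SLBP replicates, triangles the 3 PUM2 libraries and circles the 27 libraries of the other 10plex antibodies. The diamonds lie to the right of all other points for RNase P and MRP RNA and for 5S and 5.8S rRNA and copies, and among them for snoRNA and microRNA.

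Loci were then tested one by one. Each SLBP replicate was compared with the summed reads of each 10plex replicate by a two-sided Fisher's exact test with Benjamini-Hochberg adjustment over all 4025 loci, and a locus was called enriched with an adjusted p below 0.001 and a fold above 8 in all 6 comparisons. Reads were counted in peaks only, so a pool value of 0 means that none of the 10 libraries had a peak there. The pools were plain sums, so that deep libraries weighed most. FAM120A held 738423, 1602278 and 655175 peak reads in 10plex replicates 1, 2 and 3, and PUM2 10464, 15079 and 13147. A fold over a pool is thus not a fold over each antibody, and loci were not tested against single libraries. The test compares libraries, not conditions. As the loci were defined by SLBP peaks, and the shared ones by a peak in both replicates, the choice of loci favours SLBP, and the p-values are a description of these libraries. Only shared loci could be called, so that the 2.63% called over all 4025 SLBP loci is low by construction. Of all 347 shared loci 106 were called, among them all 62 shared histone loci. Outside the histone genes 44 of the 285 shared loci were called. This number was 67 with totals without histone genes, 73 also without mitochondrial transcripts, 24 with the reads of all peaks summed and 67 without 10plex replicate 1. They were 21 copies of 5S ribosomal RNA, 9 exons and 7 introns of protein-coding genes, 4 loci of RNase P and MRP RNA, 1 mitochondrial locus, 1 lncRNA intron and 1 locus in no gene. No snRNA, snoRNA, microRNA or lncRNA exon locus was called.

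RMRP is the RNA of RNase MRP. Its share of the reads outside histone genes was 5.86% in SLBP replicate 1 and 5.35% in replicate 2, and 0.102%, 0.470% and 1.43% as the lowest, median and highest of the 30 10plex libraries. The groups did not overlap, and the ratio of the means was 10.6. Of its 2 shared loci, the one on bases 63 to 129 of 264 (chr9:35657889-35657955) held 1132 and 229 SLBP reads and 4259, 4733 and 3208 reads in the 10plex pools. Its lowest fold was 9.79 (largest adjusted p = 3.28e-136 by Fisher's exact test). The other lay on bases 223 to 262, near the 3′ end, with 914 and 185 reads (chr9:35657756-35657795). Its folds ran from 7.68 to 13.15, so that it fell just short of the fold limit of 8 and was not called.

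RPPH1 is the RNA of RNase P. It took 3.72% and 2.75% of the SLBP reads outside histone genes, against 0.0571%, 0.237% and 0.679% as the lowest, median and highest 10plex library. Both replicates were above all 30, with a ratio of the means of 12.9. Its 4 shared loci (all between chr14:20343071 and 20343409) covered bases 1 to 41, 55 to 161, 249 to 291 and 295 to 333 of 333, with 278, 463, 164 and 248 reads in replicate 1 and 42, 69, 33 and 40 in replicate 2. The last 3 of these were called, with lowest folds of 12.3, 8.30 and 9.11. In 10plex replicate 3 the last 2 loci had the same reads in most libraries, such as 205 in IGF2BP2 and 137 in RBFOX2. Their calls are therefore not independent. The loci thus lay along most of RPPH1 and on 2 separate stretches of RMRP.

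U11 and U12 are snRNAs of the minor spliceosome, which removes a rare class of introns. RNU11 took 2.17% and 3.24% of the SLBP reads outside histone genes against 0.0514%, 0.343% and 1.61% as the lowest, median and highest 10plex library, the highest being a LIN28B library. Both SLBP replicates were above all 30, with a ratio of the means of 7.54. RNU12 took 2.49% and 2.88% against 0.0974%, 0.749% and 7.14%, so that the groups overlapped. The highest value there was that of SF3B4, a subunit of a particle that both spliceosomes contain, in 10plex replicate 3.

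The RNU12 locus covered bases 69 to 115 of 150 (chr22:42615312-42615358) with 871 and 223 reads. One RNU11 locus covered bases 76 to 117 of 134 (chr1:28648675-28648716) with 461 and 121 reads and had a peak in all 30 10plex libraries. Each of these held a run of T between A and G (bases 75 to 81 of RNU12 and 88 to 95 of RNU11), the kind of letters on which the Sm ring assembles. The other RNU11 locus, on bases 24 to 62 (chr1:28648623-28648661), held 297 and 67 reads and had a peak in 7 of the 30 libraries. The most reads there were in LIN28B, with 906 in replicate 2 and 1040 in replicate 3.

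Other snRNAs and small RNAs of the list did not stand apart. RNU4ATAC, also of the minor spliceosome, took 0.0802% and 0.103% against a 10plex median of 0.0839%, and RNU5E-1, a U5 gene, 0.392% and 0.568% against 0.430%. RNU6ATAC had 24 reads in replicate 1 and no peak in replicate 2. RNU7-1, whose RNA guides histone 3′ end processing together with SLBP, had no peak in either SLBP replicate and none in 22 of the 30 10plex libraries. RNU1-1, RNU2-1, RNY1 and RNY4 had no peak in any of these libraries, and RNU4-1, RNU4-2, RNU6-1, RN7SL1 and RNY3 none in SLBP and in 24 to 29 of the 30. The authors set aside reads that aligned to repetitive elements and reads that aligned to several places before peaks were called, so a missing peak of a multicopy RNA is no measure of its level.

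7SK, which holds the elongation factor P-TEFb inactive, took 0.739% and 0.633% against a 10plex median of 0.282%, with the 3 PUM2 libraries above both. Its locus lay on the last bases, 241 to 328 of 328, with 258 and 49 reads. VTRNA1-1, a vault RNA, took 0.0430% and 0.181% on 15 and 14 reads, and 29 of the 30 10plex libraries were below both values, 8 of them with no peak. The telomerase RNA TERC, with 16 and 5 reads, took 0.0458% and 0.0646% against a median of 0.0336% and a highest value of 0.0871%.

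**Figure D3:**
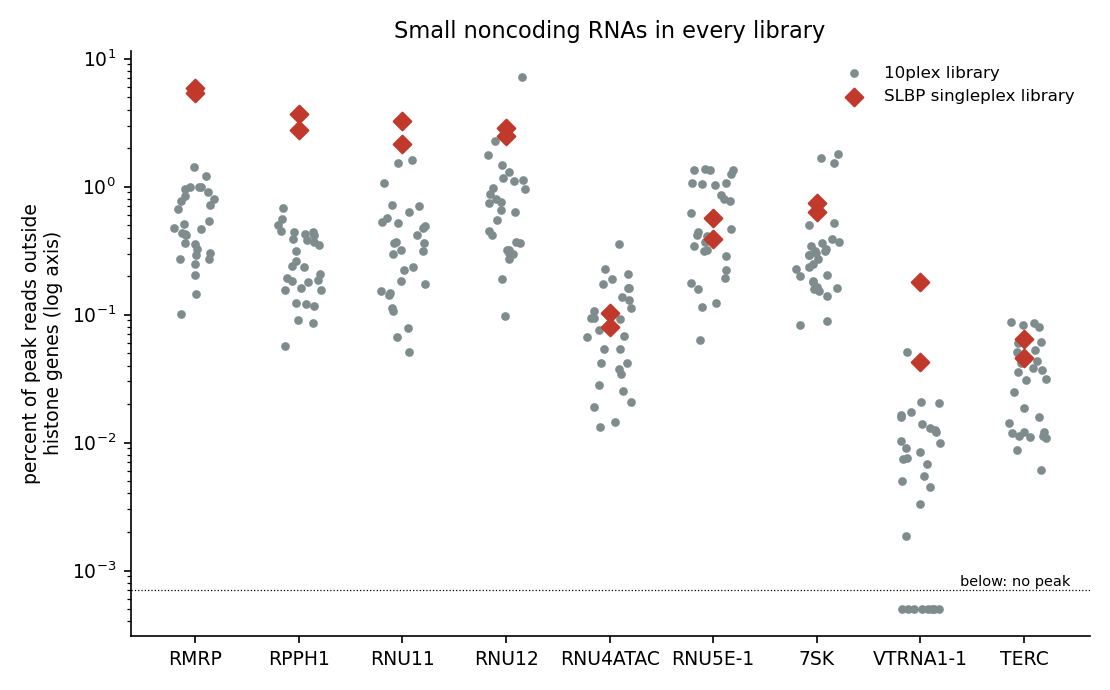
Percent of the peak reads outside histone genes (log axis) on 9 small noncoding RNAs, with the 2 SLBP replicates as diamonds and the 30 10plex libraries as circles; points under the dotted line had no peak. SLBP lies above all circles for RMRP, RPPH1 and RNU11 and within them for RNU12, RNU4ATAC, RNU5E-1, 7SK and TERC.

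The 5S-like loci shared more than their class. By BLAST, 39 of the 285 loci aligned to 5S ribosomal RNA, of which 36 were among the 37 annotated 5S loci and 3 were not annotated as 5S, namely those on the unplaced contig KI270442v1 and in introns of DPP10 and COL22A1. Of the 39, 37 lay within bases 39 to 91 of the 119, and each of bases 48 to 83 was held by at least 90% of the loci. The exceptions were RNA5SP355, on bases 13 to 83, and a copy on chromosome X, on bases 65 to 119. Identity to RNA5S9 ran from 83.3% to 100% with a median of 93.2%, and 1 locus, RNA5S9 itself, was identical.

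Of these 39 loci, 23 were called enriched, beside 44 of all 285 shared loci outside histone genes. RNA5SP150 (chr3:181822908-181822945, minus strand) had the most reads, 338 and 95 in SLBP against 1441, 668 and 884 in the 10plex pools, with a lowest fold of 10.0 (largest adjusted p = 9.75e-64 by Fisher's exact test). RNA5SP338 (chr11:22688394-22688439, plus strand) held 110 and 48 reads against 524, 298 and 102, and RNA5SP68 134 and 41 against 367, 226 and 59. RNA5SP215 held 109 and 47, with a lowest fold of 8.27. The locus on KI270442v1 (bases 380654 to 380695, plus strand) held 160 and 55 against 575, 262 and 5, and the DPP10 locus (chr2:114937754-114937802, plus strand) 54 and 13 against 282, 149 and 47. Where the pool reads are given, those of 10plex replicate 1 were the most.

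RNA5S9 and RNA5SP149 were not called. RNA5S9 held 76 and 16 SLBP reads against 1099, 1017 and 841, which gave folds of 2.65 to 5.43. RNA5SP149 held 81 and 7 against 1022, 957 and 1347, with folds of 1.09 to 6.15. All 39 loci, which were chosen by their SLBP peaks, held 4.34% and 5.94% of the SLBP peak reads against 0.540%, 0.195% and 0.233% of the pools, with folds of 8.03 to 30.5. In 10plex replicate 3, 6 of the 39 loci had no peak in any library, and in replicates 1 and 2 all 39 had one. As the loci are similar copies, with a median identity to RNA5S9 of 93.2%, how reads were divided among them is uncertain.

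**Figure D4:**
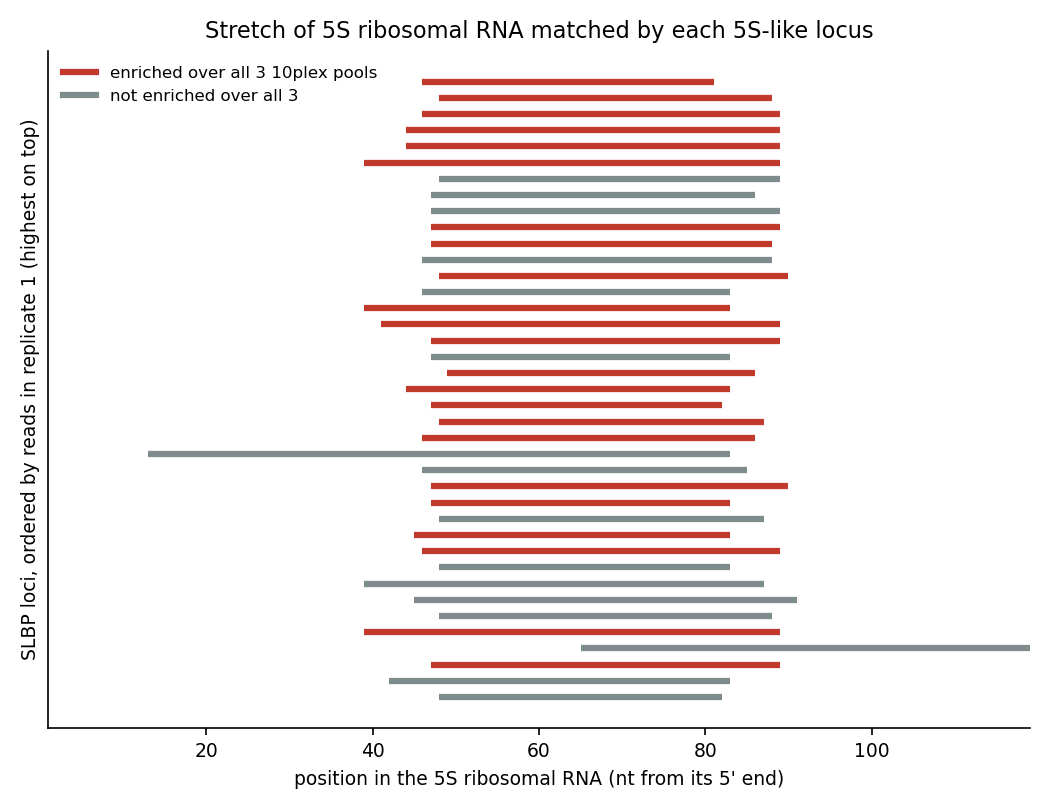
Stretch of the 5S ribosomal RNA (horizontal, nt from its 5′ end, 119 nt in all) to which each of the 39 5S-like SLBP loci aligned, ordered by reads in replicate 1. The bars of 37 loci lie between bases 39 and 91, and the 23 enriched loci are drawn in red.

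The RBMS1 locus, in an intron of a gene for an RNA-binding protein, aligned to bases 57 to 106 of RMRP, the stretch that overlaps the called RMRP locus. It held 10 and 7 SLBP reads and had a peak in 2 of the 30 10plex libraries, with pool reads of 0, 8 and 0, and was called with a lowest fold of 90.9 (largest adjusted p = 7.16e-13 by Fisher's exact test). A copy of 7SK on chromosome 4 held 7 and 3 reads and was not called.

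Among exons of protein-coding genes, FEZF2, a forebrain transcription factor gene, had the highest share, with 129 and 22 reads. The FEZF2 locus had pool reads of 673, 362 and 0 and was not called, with a lowest fold of 5.95. Next were CHTF18, which encodes a clamp loader subunit of sister chromatid cohesion (65 and 15 reads), and DDX19B, an mRNA export helicase gene (40 and 15). Among introns the order was ACSL3, an acyl-CoA synthetase gene (925 and 220 reads at its locus), GMPR, which encodes GMP reductase, and MAGEB10 (120 and 40). ACSL3 took 2.65% and 2.84% of the SLBP reads outside histone genes, against medians of 0.402%, 0.122% and 0 in 10plex replicates 1, 2 and 3. It thus lay above all 30 libraries, and the 10plex replicates differed among themselves by more than the SLBP replicates. The ACSL3 locus was not called, with a lowest fold of 6.87.

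Several of these loci, that of FEZF2 among them, held long stretches of C and G. A stretch of at least 20 bases of C and G alone lay in 25 of the 285 shared loci (8.77%), and in 1 and 0 of the windows of the same length 500 nt upstream and downstream. Runs of 8 or more C were in 11 loci and runs of 8 or more G in 3, and none was in the windows. The genes were ACSL3, APBB2, ATXN1, CHD7, CHTF18, DDX19B, MAGEB10, RNF115, RTF1, SETD3 and TMEM40 for C and LINC00486 and SYPL1 for G. These features were chosen after the sequences had been seen. The 25 loci held 1908 and 502 SLBP reads. Of them 7 were called enriched, beside 44 of all 285 shared loci outside histone genes and 106 of all 347 shared loci.

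Peaks of 10plex replicate 3 were missing at many of these loci. Of the 25 loci, 13 had no peak in any library of replicate 3, and 15 of the other 260 shared loci had none. In replicates 1 and 2 all 25 had a peak, and 9 and 10 of the 285 had none. For CHTF18 the pool reads were 302, 163 and 0, and for MAGEB10 630, 314 and 7. The part of this in their calls was not tested, and the lowest folds over the 3 pools were 9.04 for CHTF18 and 8.12 for MAGEB10.

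The median GC content of the 285 loci was 52.4%, against 47.5% and 46.7% in the windows upstream and downstream, and that of the 44 called loci 56.7% against 46.6% and 47.8%. The 5 shared loci of GMPR lay within 558 nt of an intron (chr6:16265934-16266491) and had 21 bases in common. They held 354 and 99 SLBP reads, and 1 of them was called, with 64 and 26 reads against 233, 413 and 351.

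Exact and near matches to the histone stem-loop separated the histone loci from the rest. With at most 1 mismatch within 50 nt, 52 of the 62 shared histone loci held it (83.9%), and 0 of the 285 loci outside histone genes. The one-sided exact 95% bound for the latter is a share of 1.05%. None of the windows of either set held it. With up to 2 changes, insertions and deletions included, 4 of the 285 held it, in PTK2, SNORD68, SNORD15B and SNORD6, against 9 upstream and 3 downstream windows.

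The next question was which shared loci no 10plex library held. Of all 347 shared SLBP loci 3.46% had no peak in any of the 30 libraries, which were 9 of the 62 histone loci and 3 of the 285 others. The 3 lay in an intron of PTK2, which encodes focal adhesion kinase (8 and 13 SLBP reads), in an intron of EZR, which encodes the membrane linker ezrin (14 and 4), and in an exon of FBXL6, an F-box protein gene (3 and 3). All 3 were called enriched, which their having no pool peak favours.

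None of the 3 held the stem-loop with at most 1 mismatch, and PTK2 held it with 2 changes. With up to 3 changes PTK2 and EZR held it, against 1 upstream and 0 downstream windows. Of all 285 loci 41 (14.4%) held it at that limit, against 45 upstream and 40 downstream windows. Each lay in a gene with a 10plex peak elsewhere, so that with absence asked of the whole gene the number was 0. Their GC content was 58.3% over 115 bases (exact binomial 95% interval 48.7 to 67.4), with a median over loci of 51.7% against 58.6% and 61.7% in the windows. In HEK293 cells, PTK2 and EZR again had no peak in 10plex or RBFOX2 singleplex libraries, and FBXL6 had.

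Most of the 285 loci were held widely, 143 of them by all 30 libraries. By antibody, between 214 (PUM2) and 270 (IGF2BP2) of the 285 had a peak in at least 1 replicate. All 30 libraries held 86 of the 100 snoRNA loci, 6 of the 7 snRNA loci, 15 of the 19 mitochondrial loci and 4 of the 6 of RNase P and MRP RNA, but 3 of the 37 5S loci and 5 of the 38 in exons of protein-coding genes. Among loci of a single replicate 1454 of 3634 had no 10plex peak, of which 1195 held 3 reads and none more than 8.

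**Figure D5:**
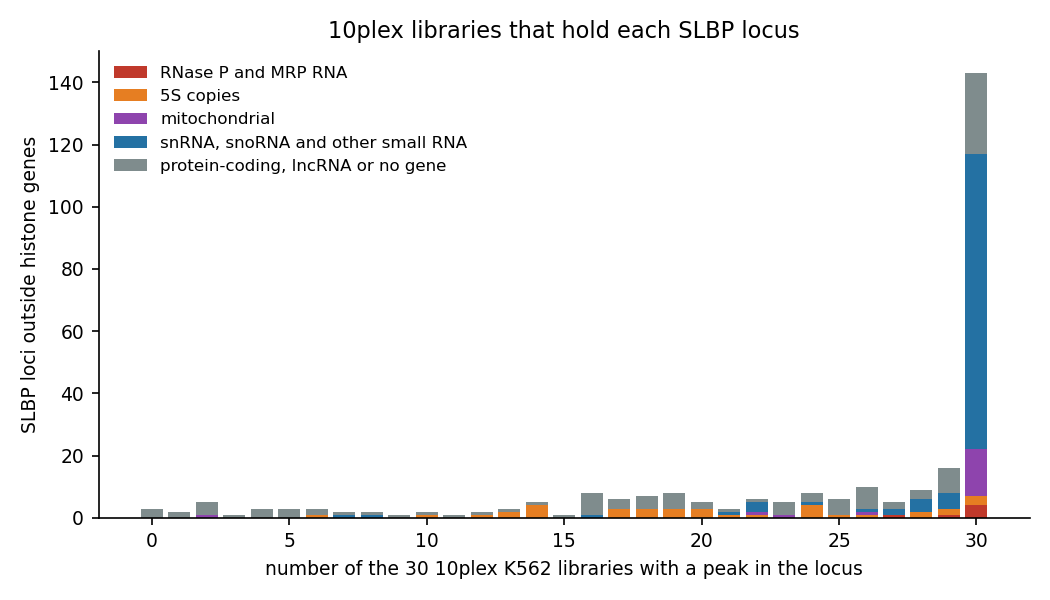
Number of shared SLBP loci outside histone genes (vertical) by the number of the 30 10plex K562 libraries with a peak in the locus (horizontal), coloured by class, with 1 locus left out. The bar at 30 holds 143 loci and that at 0 holds 3, all in protein-coding genes.

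Between these ends were called loci that few libraries held. FLNC, which encodes filamin C, had 5 and 5 SLBP reads against pool reads of 9, 0 and 0. HSPG2, the perlecan gene, had 3 and 3 against 3, 5 and 0, and GGA1, which encodes a Golgi sorting adaptor, had 3 and 3 against 0, 0 and 3. MT-ND5, a complex I subunit gene, had 10 and 4 at bases 13760 to 13822 of the mitochondrial genome against 24, 0 and 0. These calls rest on as few as 3 reads in a replicate.

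FRG1-DT, a lncRNA intron locus, and CACNB2, a calcium channel subunit intron, held the bases of a study barcode followed by the first 8 bases of the oligonucleotide beyond it. These 2 of the 285 had such a match without a mismatch within 10 nt, and 3 of the 3634 loci of a single replicate had it, in NLRP14, RNF125 and TRPC6. FRG1-DT held 23 and 6 SLBP reads, and in the 10plex it had a peak only in IGF2BP2, with 7, 29 and 85 reads. CACNB2 held 6 and 4, and in the 10plex only IGF2BP2 had a peak, with 14 and 44 reads in replicates 2 and 3. FRG1-DT was called enriched, with a lowest fold of 13.3, and CACNB2 was not. That fold sets the IGF2BP2 reads against the peak reads of all 10 libraries. IGF2BP2 alone held 152122, 256302 and 409737 peak reads in replicates 1, 2 and 3, so the fold over IGF2BP2 itself is smaller. With the first 10 bases beyond the barcode alone and at most 1 mismatch within 30 nt, 2 of the 285 loci matched, FRG1-DT and SHISAL2B, against 0 upstream and 1 downstream window. The sources used here do not say which barcode the SLBP antibody carried.

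No gene of 2 lists tied to histone mRNA or to S phase had a shared locus, and they had few loci. Of 25 factors of histone pre-mRNA processing, translation or decay, CPSF3, SYMPK and ERI1 had a locus in a single SLBP replicate, with 3 reads each, and none had a shared locus. Of 19 S phase mRNAs, 7 had a locus (RRM2, TYMS, MCM7, CHAF1A, CHAF1B, ASF1B and NASP), 12 loci in all, and none a shared one. Over all protein-coding genes 2.02% of exon loci and 3.06% of intron loci were shared, so that a count of 0 among so few loci says nothing particular of these genes. All 25 and all 19 had a peak in each 10plex replicate, at greater depth. Of the 14 K562 markers, 4 had an SLBP locus (HBE1, HBZ, TAL1 and TFRC) and none a shared one. Of 6 genes that mark HEK293 cells, the other line of the study, PAX2 had a shared intron locus with 3 and 4 reads and WT1 a locus with 3 reads in replicate 1. In the 10plex K562 replicates 3, 4 and 4 of these 6 genes had a peak.

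Other named genes lay within or partly above the 10plex range. Among mitochondrial transcripts MT-RNR2 took 20.7% and 12.6% of the SLBP reads outside histone genes against 1.73%, 6.98% and 21.7% as the lowest, median and highest 10plex library, and 25 of the 30 libraries were below both replicates. MT-RNR1 took 1.56% and 1.06%, and MT-ND4 took 0.541% and 0.581%. Among lncRNA exons, GAS5, a snoRNA host, took 1.64% and 1.28% against a median of 1.81%, MALAT1, a nuclear speckle RNA, 1.94% and 1.42% against 1.37%, and SNHG5 0.473% and 0.594% against 0.313%. SNORD100, SNORD22 and SNORD48 took 0.271% to 0.478% against medians of 0.151% to 0.287%.

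ERCC1, a DNA repair gene whose 2 shared loci the authors' annotation gave as tRNA, took 0.226% and 0.659% against a median of 0.0812% and a highest value of 0.435%. MIR4449 took 0.206% and 0.323% against 0.0962%, and MIR19A and MIR17 rested on 3 to 5 reads a replicate. LINC00486, with runs of G, took 0.730% and 0.724% against a highest 10plex value of 0.297%, so that it lay above all 30 libraries, but neither of its 2 loci was called.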

How the data were processed

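ABC peaks of SLBP (2 K562 samples) and of 10 RBPs (3 10plex K562 samples) were used. The authors trimmed adapters with cutadapt 2.8, set aside reads of repetitive elements and multi-mapped reads, aligned to GRCh38 with STAR 2.7.6, removed PCR duplicates by molecular identifiers and called peaks with CLIPper. They deposited each CLIPper peak with a p-value and a display score, and merged peaks with a −log10 P and a log2 fold over an external background. Reads outside peaks were not used.

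Reads of each merged peak were recovered as whole numbers from the deposited −log10 P and log2 fold (100% of peaks, to within a relative tolerance of 1e-07). Reads in the peak names of 10plex replicates 1 and 3 were equal for 96.9% to 99.6% of the peaks of a library, no such check was made for SLBP, and recovery and calls were tested on simulated data. A locus took the highest read number of its peaks in each library, so that reads of touching peaks were not added. Genes were classed by GENCODE release 44, and the regions of the authors by release 35. Tests were Fisher's exact test and exact permutations (scipy), with Benjamini-Hochberg adjustment, and alignments used BLAST. The sequences of the 5S loci are not reported here. Depth was 50391 and 11800 peak reads for SLBP and 10464 to 1602278 for the 10plex libraries. Intervals are exact binomial at 95% and cover counting error only.

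The genes named are the 3 with the highest mean share in each class with at least 3 shared loci, the loci that no 10plex library held, and the members of listed gene sets with a shared locus. Loci named for their letters, for few libraries or for their position were added after their values were seen. The members and lists were chosen with earlier results of these data known. Alternatives were other overlap, peak and enrichment limits, other totals, leaving out each replicate, and pairing by replicate number.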

Additional observations from a re-analysis of the deposited data

Results flagged for a closer look

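Sites of the SLBP libraries that hold a barcode and adapter bases also had peaks in HEK293 libraries that the comparison did not use. The FRG1-DT site had a log2 fold over the external background of 5.44 and 5.66 in RBFOX2 singleplex replicates 1 and 2, and of 13.6 and 11.0 in the IGF2BP2 libraries of 10plex HEK293 replicates 1 and 2. The CACNB2 site had 4.81 and 4.80 in the same RBFOX2 libraries and 12.7 and 9.06 in the same IGF2BP2 libraries.

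The FBXL6 site, which no 10plex K562 library held, had a log2 fold of 2.90 and 3.16 in the DDX3 libraries of 10plex HEK293 replicates 1 and 2 and of 4.31 in the SF3B4 library of replicate 2. The labels of the HEK293 10plex samples give HEK293T in the title and K562 in the cell line field.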

How the results depend on the processing

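The number of shared loci outside histone genes, 285, was 268 to 285 with enriched peaks alone, with a minimum overlap, with peaks before merging and without loci near histone genes, and 1084 to 3134 with a single SLBP replicate. The limit for enriched peaks passed 37.75% of the merged peaks of replicate 1 and 99.89% of those of replicate 2, so it hardly filtered replicate 2. The merged peaks were made from the peaks before merging, so that setting is no independent check. The 3 loci without a 10plex peak were 2 or 3 with a 100 nt margin, peaks before merging, enriched SLBP peaks or HEK293 libraries added, 0 where the whole gene had to be free of peaks, 4 to 6 without 1 10plex replicate (5 without replicate 1, 6 without replicate 3), and 6 with the replicate block, in which replicates 1 and 2 were compared with the 10plex replicates of the same number. The 44 enriched loci were 107 with an adjusted p below 0.05 and a fold above 2, 4 with 1e-05 and 16, 67 with totals without histone genes, 73 also without mitochondrial transcripts, 24 with the reads of all peaks summed, 44 to 67 with a replicate left out (67 without 10plex replicate 1), and 59 with the replicate block. The cause was not tested, except that stricter limits and fewer comparisons change the number by construction.

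The excess of structured small noncoding RNAs, 6.81 percentage points, was 4.23 to 14.4 under the other settings, 5.08 to 8.08 with a replicate left out and 7.28 with the replicate block (exact permutation p = 0.5, pairs with differences of 4.84 and 9.72), and it turned to -12.13 against the PUM2 libraries alone, an alternative chosen after seeing the data. The replicate numbers share only a number, as the experiments were made apart. For this excess and for the loci without a 10plex peak, the block gives by construction the value without 10plex replicate 3. It is therefore no further check of these 2 results. The ratio for RNase P and MRP RNA, 11.5, was 10.3 to 15.2, and 4.44 against the highest 10plex library, and that for 5S copies, 11.3, was 10.1 to 12.9, and 3.70. The GC content of the 3 loci without a 10plex peak differed from that of the windows by -8.42 points, by -1.23 with 50 nt on both sides and by 0.464 against windows 2000 nt away. Depth limits the loci of replicate 2, where 3 reads were the lowest number of a peak.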
